A study of Homo sapiens with 8 samples.

Results

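The genes described here are 44 integrins, laminins and collagens, out of 43579 genes on the array. They were chosen by name, as the probes that carry one of these 44 symbols and are no control spots. This rule uses no measured value, but the list of symbols was drawn up with earlier results of these data known. They comprised 17 integrin subunits (10 alpha and 7 beta), 9 laminin chains and 18 collagen chains, read by 64 of 58201 probes. Of the 44 genes, 28 were measured on all 8 arrays, that is, their probe stood well above background in Cy3, in Cy5 or in both. A further 15 were measured on some arrays, and COL3A1 on none.

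Each array set RNA of transfected cells (Cy5) against RNA of mock cells of the same line (Cy3), and the labels give the mock cells as not transfected. Mature miR-139-5p or miR-139-3p was transfected into A498 and 786-O, which are renal cancer lines (1 array for each strand in each line). In the breast cancer line MDA-MB-231 the cells received siRNA 1 or siRNA 2 against GINS1 (1 array each), and in the colorectal cancer line HCT116 they received mature miR-490-5p or miR-490-3p (1 array each). Transfection used a lipid reagent in all of them, and since the mock cells had none, an effect of the reagent or of any short RNA cannot be told apart from that of the sequence. The 2 arrays of a miR-139 strand are different lines and the 2 arrays of si-GINS1 are different siRNAs, so that the spread below is that between lines or between siRNAs. Fewer cells that express a gene and less RNA per cell cannot be told apart in such bulk RNA.

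Integrins are receptors made of 1 alpha and 1 beta subunit, which bind the matrix outside the cell and connect it to the actin skeleton through talin, kindlin and paxillin. The beta subunit ITGB1 pairs with many alpha subunits, whereas ITGB4 pairs with ITGA6 in the hemidesmosome, the anchor of epithelial cells on the basement membrane. Laminins are trimers of an alpha, a beta and a gamma chain and form that membrane together with type IV collagen. Fibrillar collagens (types I, III and V) build the fibres of the stroma, and several other collagens link, cover or cross the membrane of the cell.

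The transfected strands are shown because the comparisons are between them. Capitals mark the seed, the stretch by which a miRNA mainly recognises its targets. The sequences are those of RefSeq on GRCh38.p14.
miR-139-5p (chr11:72615102-72615124, minus strand): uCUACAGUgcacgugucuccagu
miR-139-3p (chr11:72615066-72615088, minus strand): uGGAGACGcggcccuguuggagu
miR-490-5p (chr7:136903205-136903224, plus strand): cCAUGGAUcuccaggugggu
miR-490-3p (chr7:136903242-136903263, plus strand): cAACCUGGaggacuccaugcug
The 4 seeds differ from each other, so that no strands can be grouped by a shared one. Their complements lay in 0 of the 64 member probes, against between 0.168% and 0.448% of all probes. A probe covers a small stretch of its transcript, and the full transcripts were not searched here.

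Between 24980 and 29685 probes were measured per array, at a median brightness between 19.6 and 24.7 over a local background between 14 and 17. The miR-490-5p array had the highest Cy3 brightness and background. The targeted GINS1 had log2 ratios of -1.31 with siRNA 1 and -1.92 with siRNA 2, against values between -0.11 and 0.55 on the other 6 arrays. Of the lineage markers of the kidney, PAX8 and LHX1 were highest in the mock A498 and 786-O cells. CDX2 was detected in HCT116 and in no other line, but the gut markers VIL1, CDH17 and LGALS4 were not well above background in mock HCT116. KRT7 was highest in MDA-MB-231, and ESR1 was close to background there.

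The mock channel gives the level of the genes in cells without transfection, as the log2 Cy3 signal after normalization between arrays. Levels of 1 probe are compared between lines and never with another probe, and no test was made, since both mock channels of a line may hold 1 extract. The largest gap between both channels of a line was 0.26 for any of the genes, with a median of 0.05. The 4 lines differed widely in these genes. Among genes detected in every line on every array, the range between lines reached 1 log2 unit in 22 of 27 integrins, laminins and collagens (81.5%), against 34.1% of all such genes, and its median was 2.03 against 0.74. Over all members, 31 had a range of at least 1. HCT116 had the lowest level in 18 of these 31 and the highest in 2, while 12 peaked in A498, 10 in 786-O and 7 in MDA-MB-231. The same counts were not made over all genes, so these cannot be set against genes at large. Some of the lowest levels in HCT116, such as that of ITGB3, were also not well above background.

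The widest range was that of COL4A2, a chain of type IV collagen, the network of the basement membrane. On the 2 arrays of each line COL4A2 read 12.92 and 13.02 (A498), 9.96 and 9.86 (786-O), 9.99 and 9.99 (MDA-MB-231), and 6.35 and 6.37 (HCT116). A498 thus lay 97.8-fold above HCT116, and MDA-MB-231 and 786-O did not differ beyond the gap between their channels. Its partner COL4A1 followed the order A498 (mean 9.24), 786-O (7.58), MDA-MB-231 (6.81) and HCT116 (5.96).

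The fibrillar collagen COL5A1 was also highest in A498, at 11.28 and 11.40. MDA-MB-231 followed with 10.42 and 10.44, then 786-O with 7.42 and 7.47 and HCT116 with 6.09 and 6.03, a 38.8-fold range. COL1A2, a chain of type I collagen, was detected in MDA-MB-231 alone (8.21 on average, and between 5.73 and 5.75 in the other lines). COL3A1 was not well above background in any line.

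Among the collagens of the cell surface and the epithelial anchor, COL13A1, a transmembrane collagen, was highest in MDA-MB-231. It read 12.05 and 11.93 there, against means of 8.77 in 786-O, 8.02 in HCT116 and 7.83 in A498, which is 17.9-fold between the extremes. COL7A1, which forms the anchoring fibrils under epithelia, ranged from 10.43 in 786-O to 6.31 in HCT116. COL17A1, the transmembrane collagen of the hemidesmosome, was detected in MDA-MB-231 alone, at 6.32. COL6A3 stood high in 786-O (8.73) and was not well above background in A498 or HCT116, a range of at least 7.37-fold.

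Of the beta subunits, ITGB4 and ITGB3 divided the lines. ITGB4 was high in HCT116 (11.44 and 11.33) and MDA-MB-231 (10.84 and 10.82), low in 786-O (6.70 and 6.68), and close to background in A498 (5.89 and 5.91, well above background on 1 of 2 arrays). ITGB3, which pairs with ITGAV to bind vitronectin, ran the other way. In the renal lines it read 10.17 and 10.27 (A498) and 10.23 and 10.16 (786-O). MDA-MB-231 had 7.25 and 7.21, and in HCT116 (5.74 and 5.73) the probe was not well above background. A498 and 786-O did not differ beyond their gap in ITGB3. ITGB2, the beta subunit of leukocyte integrins, was detected in the renal lines, at means of 7.90 and 8.06. Its second probe was also measured on both MDA-MB-231 arrays, and no probe of it was in HCT116. ITGB6 was detected in no line.

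Of the alpha subunits, ITGAV had the widest range, with means of 10.91 and 10.78 in the renal lines A498 and 786-O, 9.58 in the breast line and 8.15 in the colorectal line. ITGA5, the fibronectin receptor subunit, was at 8.43 and 8.82 in the renal lines against 6.51 and 6.67 in MDA-MB-231 and HCT116. ITGA6 was higher where its partner ITGB4 was high, at 9.63 in MDA-MB-231 and 8.97 in HCT116, against 7.61 in A498 and 7.60 in 786-O. ITGA7, a laminin receptor subunit known from muscle, was highest in HCT116 (7.95).

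The laminin chains were lowest in HCT116 where they differed most. LAMB1, a beta chain, followed the order A498 (12.15), 786-O (11.78), MDA-MB-231 (10.14) and HCT116 (8.51), a 12.5-fold range. LAMA1, an alpha chain typical of embryonic basement membranes, was at 9.29 in A498 and at or below 5.93 in the other lines. It was not well above background in HCT116, so its lowest line cannot be named. LAMA3, the alpha chain of the epithelial laminin, was at 9.31 in 786-O and 6.52 in HCT116. LAMA5, by its brightest probe, varied least among the well detected chains, between 14.11 in HCT116 and 14.67 in MDA-MB-231. Mock levels of its second probe, whose log2 ratios differed in sign on several arrays (given below), were not compared. LAMA2, the alpha chain of muscle, was detected in HCT116 alone (6.14).

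**Figure D1:**
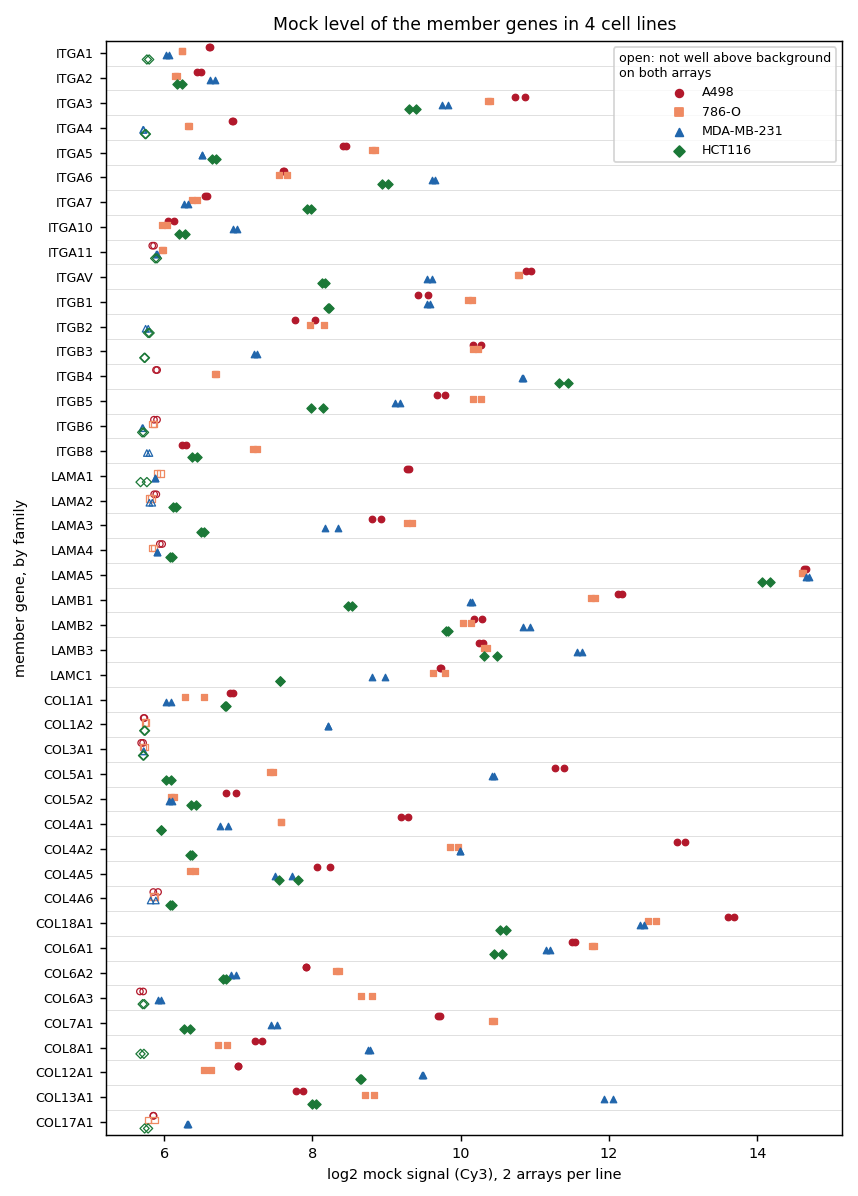
Log2 mock signal (Cy3, x axis) of the 44 genes (rows, by family) in the 4 lines, with 1 point for each of 2 arrays per line. Open symbols mark a gene that was not well above background on both arrays. The points of a line nearly coincide, while the lines lie apart, by up to 6.61 log2 units for COL4A2.

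The effect of each transfection on these genes was read as the log2 ratio of transfected over mock. A gene is described below where it passed the test or reached 0.6 in size on at least 1 array, which 24 of the 44 did (9 integrins, 4 laminins and 11 collagens). How many of all genes meet this rule was not counted, so the 24 only set what is described. The shares of all genes are given below for each array. In all, 39 values reached 0.6, and each of these 39 kept its sign under 4 other ways to correct or scale the arrays. Not all kept their size. With median centring many of the negative values came within 0.6, while the positive ones stayed above it. COL12A1 with siRNA 1 went from -0.68 to -0.155, and COL13A1 with siRNA 1 from -0.91 to -0.23. ITGB3 with miR-139-5p in A498 went from -0.61 to -0.23. Another 19 measured genes stayed between -0.51 and 0.52 on every array. These were ITGA4, ITGA5, ITGA7, ITGA10, ITGA11, ITGB2, ITGB5, ITGB6, LAMA1, LAMA3, LAMA4, LAMA5, LAMB1, COL1A2, COL5A2, COL4A6, COL6A2, COL6A3 and COL17A1.

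**Figure D2:**
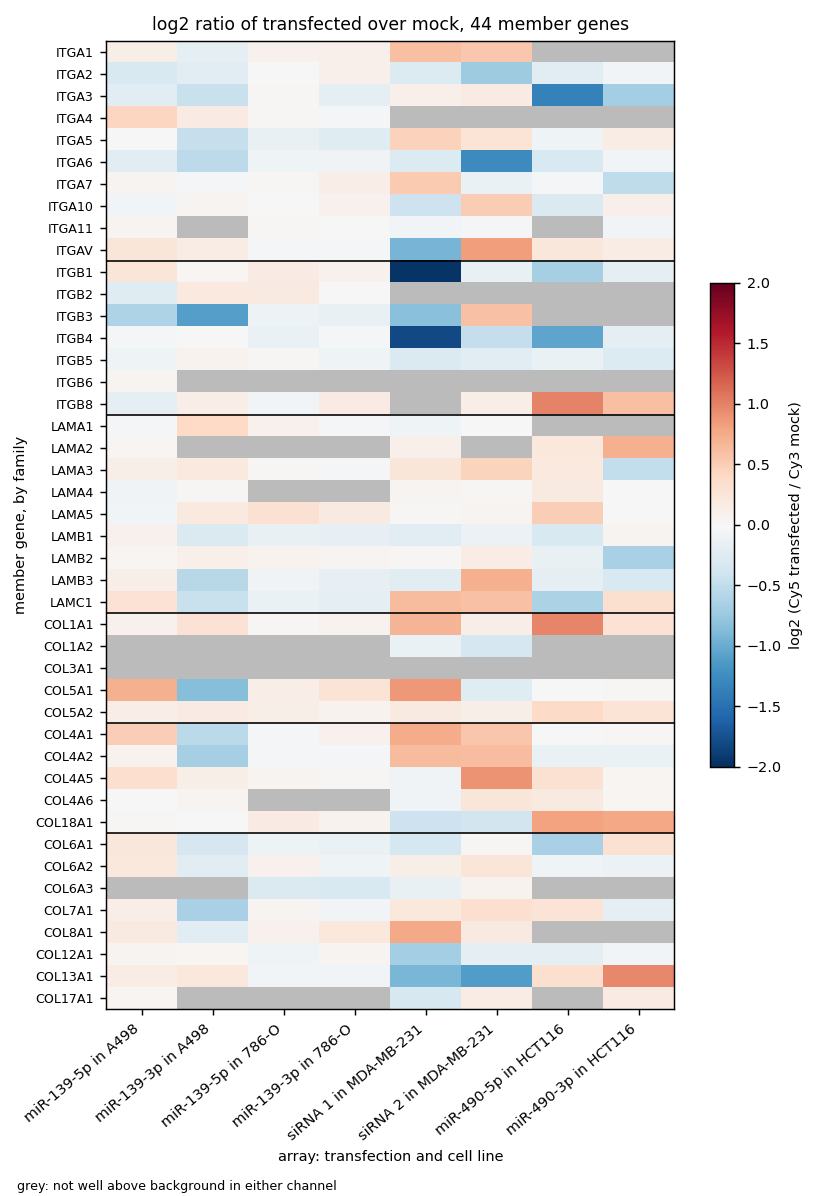
Log2 ratio of transfected (Cy5) over mock (Cy3) signal for the 44 genes (rows, by family) on the 8 arrays (columns), as colour from -2 (blue) to 2 (red). Grey marks values not well above background in either channel. The strongest colour is that of ITGB1 with siRNA 1, at -1.97, while both 786-O columns are pale.

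Knockdown of GINS1, a subunit of the helicase that opens DNA for replication, was read with 2 siRNAs in MDA-MB-231. COL13A1 fell, COL18A1 fell by less, and ITGA1 rose. Several integrins had values far from 0 with 1 siRNA and nearer to 0 with the other. limma called 3 of 38 members at an adjusted p under 0.05, or 7.89%, against 7.39% of all genes tested, so the family was called about as often as genes at large. By family the calls were 1 of 13 integrins, 0 of 8 laminins and 2 of 17 collagens, and at an unadjusted p under 0.05 they would be 6, 2 and 10, or 47.4% of the members against 26.8% of all genes. The median log2 ratio of the 38 members was 0.04, against 0.01 for all genes.

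COL13A1 (hg19 chr10:71718811-71718870) had log2 ratios of -0.91 with siRNA 1 and -1.12 with siRNA 2. It fell by 1.02 on average ± 0.15 (SD, n = 2 arrays; SE 0.10, adjusted p = 0.0173 in limma), or 2.02-fold. With median centring in place of loess the fall was 0.47 log2 units and no longer called (limma adjusted p 0.135). COL18A1 (hg19 chr21:46933558-46933617), a basement membrane collagen whose end fragment is endostatin, read -0.41 and -0.37. Its mean fell by 0.39 ± 0.03 (SD, n = 2 arrays; SE 0.05, adjusted p = 0.0285 in limma), but median centring gave a mean of 0.20. ITGA1 (hg19 chr5:52249249-52249308), the alpha subunit of a collagen receptor, read 0.61 and 0.54. Its mean rose by 0.57 ± 0.05 (SD, n = 2 arrays; SE 0.08, adjusted p = 0.0277 in limma). The probe was dim (a mock level of 6.04), and its mean was 1.42 with the scanner log ratio, made without the offset of 50 that the fit adds to each signal. ITGA1 was also not called against the mean of the arrays of other lines, which removes a constant dye bias of the probe (limma adjusted p 0.0572). All 3 calls were lost when the scanner log ratio was tested or when the si-GINS1 arrays were fitted alone.

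On the siRNA 1 array, 6 of 39 measured members were at or below -0.6, against 5.63% of all genes, and 7 were at or above 0.6, against 5.07%. On the siRNA 2 array, 3 of 39 were at or below -0.6 (4.45% of all genes) and 4 at or above 0.6 (2.89%). The beta integrins had their lowest values with siRNA 1. ITGB1 (hg19 chr10:33200507-33200566) read -1.97 with siRNA 1, which is 3.91-fold below mock, and -0.14 with siRNA 2. ITGB4 read -1.80 and -0.48. The mean of ITGB1 was -1.06 ± 1.29 (SD, n = 2 arrays) and that of ITGB4 -1.14 ± 0.94, and neither passed (limma adjusted p 0.201 and 0.1001).

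ITGAV and ITGB3, the subunits of the vitronectin receptor, had opposite signs with the siRNAs. ITGAV read -0.92 with siRNA 1 and 0.83 with siRNA 2. ITGB3 read -0.83 and 0.58. Their means of -0.05 ± 1.24 and -0.12 ± 0.998 (SD, n = 2 arrays) did not pass (limma adjusted p 0.957 and 0.886). The 4 beta subunits measured with siRNA 1 by their brightest probe were below 0 (3 of 4 with median centring), against 46.6% of all genes. Their median was -1.32, against 0.01 for all genes. This median was also below 0 under the other scalings (-0.88 with median centring).

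With siRNA 2, by contrast, the alpha subunit ITGA6 had the lowest value of all members, at -1.28 (-0.27 with siRNA 1). Its second probe read -0.89 and -0.32. ITGA2, a collagen receptor subunit, was at -0.71 with siRNA 2 and -0.28 with siRNA 1. These 2 genes did not pass the test either (limma adjusted p 0.148 and 0.123). In siRNA 1 minus siRNA 2, differences at or below -0.6 occurred in 7 of 38 members, against 6.76% of all genes, and at or above 0.6 in 3, against 8.2%. The lowest of these differences were those of ITGB1 (-1.83), ITGAV (-1.75), ITGB3 (-1.41) and ITGB4 (-1.33). ITGA10, COL4A5 and LAMB3 had differences of -0.93, -0.96 and -0.93, and COL5A1 (1.12), ITGA6 (1.003) and ITGA7 (0.65) lay on the other side. There is 1 array per siRNA, so these differences have no test.

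Both chains of the main type IV collagen were above 0 with both siRNAs. COL4A1 read 0.75 and 0.56, and COL4A2 0.63 and 0.61. LAMC1, the gamma chain of most laminins, read 0.64 and 0.58. The means of 0.65 ± 0.13, 0.62 ± 0.01 and 0.61 ± 0.04 (SD, n = 2 arrays) missed the threshold (limma adjusted p 0.122, 0.0843 and 0.0580). COL4A5, a chain of the second type IV network, read -0.07 with siRNA 1 and 0.89 with siRNA 2, and LAMB3, the beta chain of the epithelial laminin, -0.23 and 0.70.

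Other collagens differed between the siRNAs. COL5A1 read 0.87 and -0.25, but both of its other probes lay between -0.17 and 0.09. COL8A1, a short-chain collagen, read 0.76 and 0.18. COL1A1 read 0.69 and 0.14, and COL12A1, a fibril-associated collagen, -0.68 and -0.19. The second COL12A1 probe read -0.24 and 0.11. COL6A1 (-0.35 and 0.03), COL7A1 (0.21 and 0.32), LAMB2 (0.02 and 0.14) and ITGA3 (0.10 and 0.17) stayed within 0.6.

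COL4A1 and COL4A2 are transcribed away from each other, with 127 bases between their starts, so that the promoter window of COL4A2 also holds the start of COL4A1. It is shown because the log2 ratios of COL4A1 and COL4A2 differed by between 0.05 and 0.13 with both siRNAs and with miR-139-3p in A498. They differed by 0.42 with miR-139-5p in A498, where COL4A1 read 0.50 and COL4A2 0.08. A role of the shared window was not tested.
COL4A2 promoter (GRCh38.p14, chr13:110307034-110307333, plus strand): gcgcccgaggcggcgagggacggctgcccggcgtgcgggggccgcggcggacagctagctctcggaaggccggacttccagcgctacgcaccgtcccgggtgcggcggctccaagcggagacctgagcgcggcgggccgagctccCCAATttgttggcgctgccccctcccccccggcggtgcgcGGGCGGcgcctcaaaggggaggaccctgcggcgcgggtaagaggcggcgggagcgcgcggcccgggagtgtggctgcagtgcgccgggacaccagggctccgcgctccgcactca
Capitals mark the only matches in this window to CCAAT and to GGGCGG, which do not overlap, searched on both strands. CCAAT stood in 34.6% and GGGCGG in 45.0% of all promoters of this length.

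The other genes of the pathway were read from lists beside the members. In si-GINS1, 1 of 20 genes of the integrin adhesion complex was called, paxillin (PXN), at -0.81 and -0.68. Of 11 other matrix ligands, HSPG2, the basement membrane proteoglycan perlecan, fell (-0.51 and -0.54) and CCN1, a matricellular integrin ligand, rose (0.48 and 0.73). Of 16 genes that make or cross-link collagen, LOXL1 alone fell (-0.24 and -0.40), while the collagen lysyl hydroxylase PLOD2 took opposite signs, -1.80 with siRNA 1 and 1.33 with siRNA 2. None of 8 other matrix receptors and none of 8 other subunits of these families was called. Of the marker lists CDH1, KRT7, PDGFRB and CD14 were called lower, which is 1 of 4 epithelial, 1 of 5 breast, 1 of 4 measured mesenchymal and 1 of 2 measured leukocyte markers. PDGFRB lay between -1.08 and -0.82 on all 8 arrays, those without siRNA included. The part of these markers in the values of the members was not tested.

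**Figure D3:**
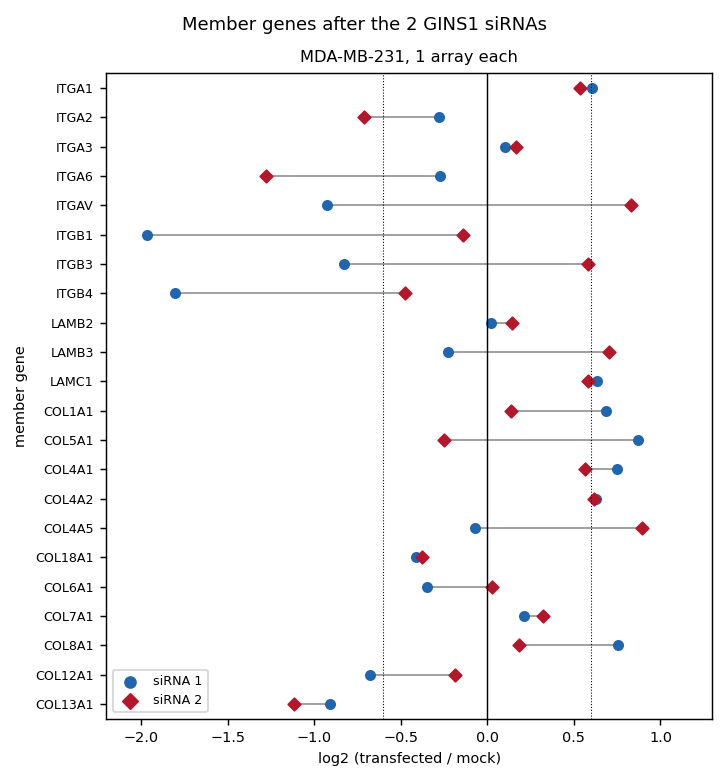
Log2 ratio of transfected over mock signal (x axis) in MDA-MB-231 for siRNA 1 (circles) and siRNA 2 (diamonds), 1 array each. Rows are the genes described here that were measured on both arrays, and dotted lines mark 0.6 in size. COL13A1, COL4A2 and LAMC1 have both points close together, whereas ITGB1, ITGAV and ITGB3 have them more than 1 log2 unit apart.

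Both strands of the miR-139 duplex were read in A498 and in 786-O. In A498 a set of collagens and ITGB3 lay low on the miR-139-3p array, whereas in 786-O no member reached 0.6 with either strand. Among all genes in 786-O, 0.0615% were at or below -0.6 and 0.082% at or above 0.6 with miR-139-5p, and 0.0918% and 0.0408% with miR-139-3p. In limma, 0 of 36 members were called for miR-139-5p (0.0164% of all genes), 0 of 35 for miR-139-3p (0% of all genes) and 0 of 35 for the contrast of the strands (0% of all genes). At an unadjusted p under 0.05 there were 0, 3 and 2 members, or 0%, 8.57% and 5.71%, against 2.82%, 4.90% and 0.701% of all genes. These tests average over 2 lines that differed, so the values of each line are given.

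With miR-139-3p in A498, 4 of 37 measured members were at or below -0.6, against 0.981% of all genes, and 0 were at or above 0.6 (0.299%). ITGB3 (hg19 chr17:45389027-45389086) had the lowest value, -1.10, or 2.14-fold below mock. COL5A1 (-0.85), COL4A2 (-0.67) and COL7A1 (-0.65) followed. LAMB3 (-0.55), COL4A1 (-0.54), ITGA6 (-0.52), LAMC1 (-0.45) and ITGA3 (-0.44) were below 0 but within 0.6. In 786-O the same strand gave values of -0.14 for ITGB3, 0.27 for COL5A1, -0.03 for COL4A2 and -0.06 for COL7A1.

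With miR-139-5p in A498, 1 of 41 members was at or below -0.6 (0.291% of all genes), which was ITGB3 at -0.61. Likewise 1 was at or above 0.6 (0.0715% of all genes), which was COL5A1 at 0.71. Of 15 collagens 1 was below 0 with this strand, against 47.1% of all genes. Their median was 0.14, against 0.01 for all genes. The same median was above 0 under each scaling, between 0.14 and 0.48. In 786-O miR-139-5p gave -0.10 for ITGB3 and 0.13 for COL5A1.

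Among the members, the widest gaps between the miR-139 strands were those of matrix genes in A498. Over all genes there, the differences ran from -2.53 to 1.71. In miR-139-3p minus miR-139-5p there, 6 of 37 members were at or below -0.6, against 1.14% of all genes, and 0 were at or above 0.6 (0.611%). COL5A1 had a difference of -1.56, followed by COL4A1 (-1.03), COL7A1 (-0.78), LAMC1 (-0.74), COL4A2 (-0.74) and LAMB3 (-0.67). All 6 are chains of collagen or laminin, and the lowest integrin difference was that of ITGB3 (-0.49). The difference in COL5A1 rests on its brightest probe, since both other probes lay between -0.24 and 0.08 in A498. In 786-O all strand differences of members lay between -0.20 and 0.22, with 0 of 37 at or below -0.6 (0.0426% of all genes) and 0 at or above 0.6 (0.016%). No test of the difference between lines was made, with 1 array for each strand in a line.

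Of the pathway genes in A498, SDC1, a proteoglycan receptor, read -0.33 and -1.11 for the 5p and the 3p strand. PXN read -0.16 and -0.85. In the integrin adhesion complex 17 of 20 genes were below 0 with miR-139-3p, against 48.1% of all genes, and in collagen synthesis 14 of 16. The same strand in 786-O gave 16 of 20 and 11 of 15, against 46.9% of all genes. The medians behind these counts were close to 0, at -0.07 and -0.09 in A498 and -0.06 and -0.07 in 786-O. With miR-139-5p the counts were 13 of 20 and 9 of 16 in A498 (47.1% of all genes). In 786-O they were 11 of 20 and 11 of 15 (49.1% of all genes). No gene of these lists was called in limma for either strand.

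**Figure D4:**
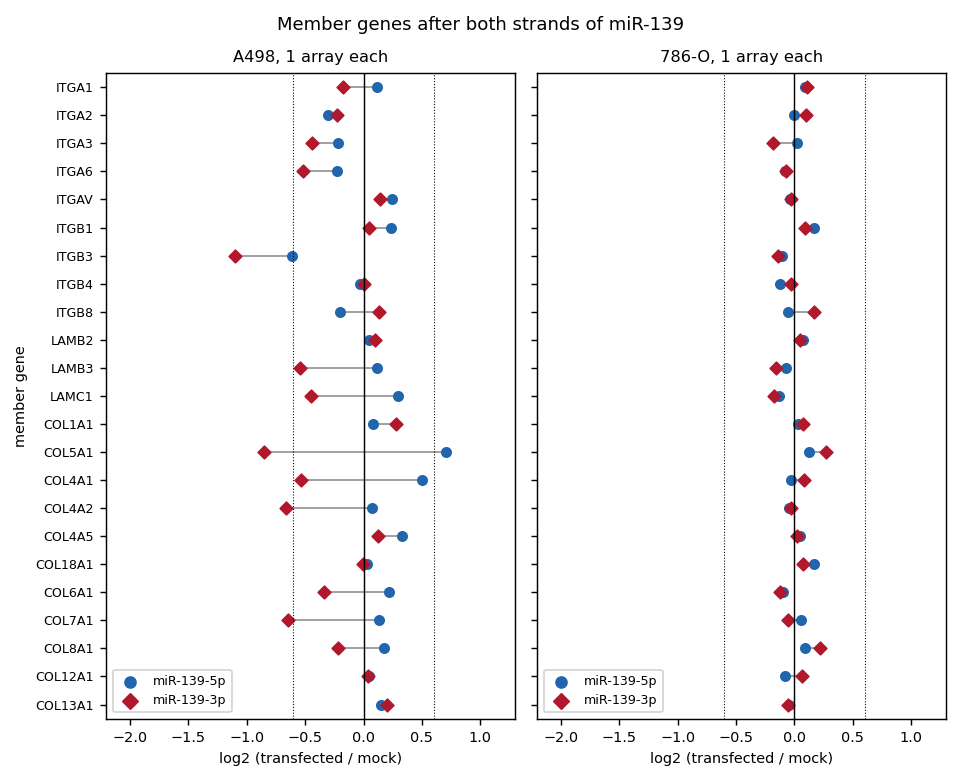
Log2 ratio of transfected over mock signal (x axis) for miR-139-5p (circles) and miR-139-3p (diamonds) in A498 (left) and 786-O (right), 1 array each. Rows are the genes described here that were measured on both arrays of a line, and dotted lines mark 0.6 in size. In A498 the collagen and laminin chains spread up to 1.56 log2 units between strands (COL5A1), and in 786-O all points lie near 0.

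In HCT116 the strands of miR-490 were read on 1 array each, so there is no replicate check and no test. The integrin subunits ITGA3, ITGB4 and ITGB1 lay low on the miR-490-5p array, and COL18A1 lay high on both. By the rule of size (a log2 ratio of at least 1 in either direction), miR-490-5p had 2 of 32 members at or below -1, against 1.09% of all genes, and 0 at or above 1 (0.301%). miR-490-3p had 0 of 34 at or below -1 (0.669%) and 0 at or above 1 (0.401%).

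With miR-490-5p, ITGA3 (hg19 chr17:48167365-48167424), the alpha subunit of a laminin receptor, was at -1.36, or 2.56-fold below mock. ITGB4 (hg19 chr17:73753824-73753883) was at -1.05, ITGB1 at -0.66, LAMC1 at -0.64 and COL6A1 at -0.64. These 5 members at or below -0.6 compare with 3.95% of all genes. Of 11 integrins measured, 9 were below 0, against 46.5% of all genes. Their median was -0.21, against 0.01 for all genes, and between -0.16 and -0.35 under the other scalings. With miR-490-3p the same genes read -0.68 (ITGA3), -0.19 (ITGB4), -0.19 (ITGB1), 0.32 (LAMC1) and 0.30 (COL6A1). ITGA3 thus lay below -0.6 with both strands, and the others with miR-490-5p alone. With median centring ITGA3 was at -0.40 with miR-490-3p, and thus within 0.6. For miR-490-5p, median centring left ITGA3 (-1.22) and ITGB4 (-0.85) below -0.6, but not ITGB1 (-0.55), LAMC1 (-0.55) and COL6A1 (-0.46).

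On the other side, ITGB8, which pairs with ITGAV to activate TGF-beta, was at 0.996 with miR-490-5p, just under the limit of 1, and at 0.595 for the 3p strand, just under the limit of 0.6. COL1A1 was at 0.97 and 0.28. COL18A1 was at 0.81 and 0.78, close to equal with both strands. The 3 members at or above 0.6 with miR-490-5p compare with 2.36% of all genes.

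With miR-490-3p, 2 of 34 members were at or below -0.6 (2.43% of all genes), namely ITGA3 and LAMB2, the latter a beta laminin chain (-0.64, and -0.14 with miR-490-5p). A second LAMB2 probe read -0.36. COL13A1 was the highest member at 0.95, or 1.94-fold above mock (0.32 with miR-490-5p), followed by COL18A1 and by LAMA2 at 0.71 (0.22 with miR-490-5p). These 3 at or above 0.6 compare with 2.31% of all genes.

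In miR-490-3p minus miR-490-5p, 5 of 32 members were at or above 0.6, against 4.75% of all genes, and 2 at or below -0.6, against 2.87%. The differences were 0.96 for LAMC1, 0.94 for COL6A1, 0.87 for ITGB4, 0.67 for ITGA3 and 0.63 for COL13A1, and -0.69 for both LAMA3 and COL1A1. LAMC1 and COL6A1 had opposite signs with the strands, whereas ITGB4 and ITGA3 were below 0 with both. For LAMA5 and COL12A1 the probes disagreed in sign on the miR-490-5p array, at 0.48 and -0.50 for LAMA5 and at -0.17 and 0.48 for COL12A1. The LAMA5 probes also disagreed with miR-490-3p (0.01 and -0.39) and with siRNA 1 (0.02 and -0.41). They did so with miR-139-3p in A498 (0.19 and -0.44) and 786-O (0.18 and -0.08), and had the same sign on the remaining arrays.

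Of the other pathway genes, CCN1 was the highest, reading 1.66 for the 5p and 1.83 for the 3p strand. In collagen synthesis all 14 of 14 measured genes had negative ratios with miR-490-5p, against 46.5% of all genes, and 2 reached -1 (1.09% of all genes), the prolyl hydroxylase subunit P4HB (-1.23) and the isomerase PPIB (-1.05). With miR-490-3p 9 of 15 were below 0, against 48.3% of all genes. CD44, a hyaluronan receptor, read -1.10 and -0.15, and the epithelial kindlin FERMT1 -1.15 and -0.21.

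**Figure D5:**
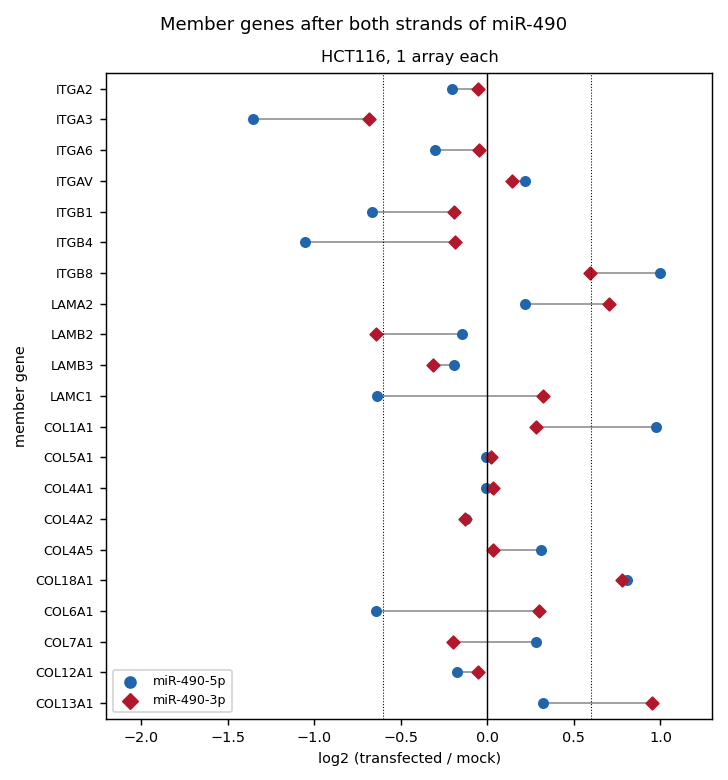
Log2 ratio of transfected over mock signal (x axis) in HCT116 for miR-490-5p (circles) and miR-490-3p (diamonds), 1 array each. Rows are the genes described here that were measured on both arrays, and dotted lines mark 0.6 in size. ITGA3 and ITGB4 have their miR-490-5p points at or below -1, and both points of COL18A1 lie near 0.8.

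Across all 8 arrays the members differed in where their values left 0. ITGB1 read 0.24 and 0.05 (miR-139-5p, miR-139-3p) in A498 and 0.17 and 0.09 in 786-O, and was low in MDA-MB-231 with siRNA 1 and in HCT116 with miR-490-5p. ITGB4 read -0.03, 0.00, -0.13 and -0.03 on those 4 arrays, where its mock level was low, and was below 0 on the other 4. COL18A1 read 0.03, 0.00, 0.17 and 0.07 in the renal lines, was below 0 with both GINS1 siRNAs and above 0 with both miR-490 strands. COL13A1 read 0.15, 0.20, -0.05 and -0.05 there, with the same pattern of signs in MDA-MB-231 and HCT116. COL4A1 and COL4A2, in turn, stayed between -0.13 and 0.08 in 786-O and HCT116, and went beyond this range with both siRNAs and with miR-139-3p in A498. No member reached 0.6 on all arrays of 2 lines.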

How the data were processed

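RNA of 8 samples was hybridised to 2-colour Agilent arrays, transfected cells in Cy5 and mock cells of the same line in Cy3, with no dye swap, so that the dye bias of a probe adds to its ratio. Per the file headers, the deposited intensity values are the linear brightness of each spot and its local background, read with Agilent Feature Extraction 11.5.1.1 (design 072363, hg19). The scanner's log10 ratios, as deposited, equal those of the series' value table (largest difference 0) and served as an alternative.

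Of 62976 spots per array, 2075 control spots and between 112 and 194 outlier spots were left out, and 0 were saturated. Background was corrected with normexp (offset 50) and each array normalized by loess, and spots of a probe were averaged to 58201 probes. In limma 3.58.1 (R 4.3.3), 1 fit of the 8 arrays with 5 group means and 3 residual degrees of freedom tested every probe well above background in at least 1 channel on all arrays of its group. P-values are two-sided, Benjamini-Hochberg adjusted over all probes tested, and called under 0.05. They rest on a spread pooled over the groups with more than 1 array, between lines for miR-139 and between siRNAs for si-GINS1. A p-value of si-GINS1 thus also holds the spread between the renal lines, unlike the SD printed beside it. miR-490 has 1 array per strand and a rule of size of 1. Mock levels are Cy3 signals after Aquantile scaling between arrays. A gene is read from its brightest probe, and 31104 accessions were matched to RefSeq.

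The members, the lists and the rule for named genes (called, or at least 0.6 in size on 1 array) were chosen with earlier results of these data known. The alternatives were other background corrections and scalings, the scanner ratio, the median of a gene's probes, no filter on dim probes, another prior, the line as a block, removal of the mean of other lines, and each replicate left out. The analysis was tested on simulated data. The number of arrays limits the precision. Sequences of the siRNAs were not used here.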

Additional observations from a re-analysis of the deposited data

Results flagged for a closer look

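In the miR-139 arrays the 2 lines lay on opposite sides of 0 for a pair of members. ITGAV was at 0.25 (miR-139-5p) and 0.14 (miR-139-3p) in A498. The 786-O arrays gave -0.04 and -0.03, so that the mean of A498 lay 0.231 log2 units above that of 786-O. COL13A1 read 0.15 and 0.20 for these strands in the former line, against -0.05 and -0.05 in the latter, a gap of 0.226. Both arrays of A498 were above 0 and both of 786-O below 0 in each case, and the difference was not tested. Both members were picked by this pattern of signs. The share of all genes that show it was not counted, so the pattern cannot be set against genes at large. The 786-O values were also close to 0, and between 46.9% and 49.1% of all genes were below 0 on the arrays of that line. With median centring both genes were above 0 with miR-139-3p in 786-O (0.19 for ITGAV, 0.09 for COL13A1), so the pattern did not hold there. The 2 arrays of a line may share their mock RNA.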

How the results depend on the processing

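The calls in si-GINS1 depended on the processing. Against 3 members called, median centring gave 6, all higher (ITGA3, LAMB2, ITGA1, LAMA3, LAMA5 and COL4A2), with COL18A1 at 0.20 in place of -0.39 (-0.82 with the mean of other lines removed). The scanner log ratio gave 0, the line as a random block 21, and the group's arrays alone, with 1 residual degree of freedom, 0. Leaving out 1 siRNA gave 13 (without siRNA 1) and 15 (without siRNA 2), the lone array being taken to vary like the other groups. COL13A1, COL18A1 and ITGA1 were called in both of these. COL18A1 was not called with an offset of 10, without background correction or with a variance trend, and COL13A1 and ITGA1 were. Of all genes called in si-GINS1, 48.0% were higher, against 90.5% with median centring, 34.7% with an offset of 10, 37.8% without background correction, 39.0% with the mean of other lines removed and 21.0% with the scanner log ratio. Probes called numbered 1936, 2974 (median centring), 75 (scanner), 10520 (random block), 662 (mean of other lines removed), 6666 (without siRNA 1), 9392 (without siRNA 2) and 0 (group's arrays alone). Median centring moved the median of all genes to 0.14 with miR-139-5p in A498 and to 0.18 with siRNA 1.

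For miR-139-5p, miR-139-3p and their contrast 0 members were called under every setting run. With the line as a replicate block the contrast also had 0 members called. The strands of a line correlated at 0.0753 over 22178 probes in their deviations from the group means, so the pairing was not kept. For miR-490-5p, median centring and removal of the mean of other lines each left 1 member at or below -1, against 2. At or above 1 there were 2 with an offset of 10, 2 without background correction, 2 with the scanner log ratio and 3 with median centring, against 0. For miR-490-3p the members at or above 1 were 2, 2, 4 and 2 in that order and 1 with the mean of other lines removed, against 0, and the scanner log ratio gave 1 at or below -1, against 0. The cause was not tested. The members with a mock range of at least 1 numbered 31, and 36 without background correction. Dim probes limit the size of a ratio, since the offset pulls it towards 0.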
